A study of Mus musculus with 4 samples.

Results

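The 30 genes described here encode voltage-gated sodium and calcium channels and were chosen by name, from a fixed list, out of 56748 genes counted in nuclei of mouse hippocampus. Of these, 8 encode sodium channel subunits (5 pore-forming alpha subunits, *Scn1a*, *Scn2a*, *Scn3a*, *Scn8a* and *Scn9a*, and the 3 beta subunits *Scn2b*, *Scn3b* and *Scn4b*). The other 22 encode 8 pore-forming calcium channel subunits (*Cacna1a* to *Cacna1e* and *Cacna1g* to *Cacna1i*), 4 alpha2delta subunits (*Cacna2d1* to *Cacna2d4*), 4 beta subunits (*Cacnb1* to *Cacnb4*) and 6 genes of the gamma family (*Cacng2* to *Cacng5*, *Cacng7* and *Cacng8*). The rule used names and no measured value, although the list was chosen with earlier results of these data known.

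Sodium channels open when a neuron is depolarized and carry the rising phase of the action potential. Voltage-gated calcium channels turn the same depolarization into calcium entry. P/Q- and N-type channels sit at presynaptic terminals and trigger transmitter release, L-type channels couple activity to gene transcription, and T-type channels open near the resting potential and favor burst firing. The alpha2delta and beta subunits bring the pore-forming subunit to the membrane and set its gating. Most gamma genes named here are better known as transmembrane AMPA receptor regulatory proteins, which carry AMPA receptors to the synapse.

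The study asked whether microglia and neuronal IL-1R1 shape the response of the hippocampus to repeated social defeat (RSD, here stress), in which an aggressor was placed in the home cage of male mice for 2 h on each of 6 nights. Hippocampi were taken 14 h after the final night, and nuclei were barcoded by split-pool rounds. Each condition was 1 pool of hippocampi from 3 mice, and the nuclei analysed here came from 4 sublibraries that each held nuclei of all 8 pools. In the first experiment, C57BL/6 mice (bought at 5 to 7 weeks) ate vehicle chow or PLX5622 chow, an inhibitor of the CSF1 receptor that depletes microglia, from 7 days before RSD and were left undisturbed (Con-Veh, Con-PLX) or stressed (Stress-Veh, Stress-PLX). In the second, IL-1R1+/+ mice (without Cre) and nIL-1R1-/- mice, in which Cre driven by *Vglut2* (*Slc17a6*) deletes *Il1r1* in glutamatergic neurons, were likewise left undisturbed or stressed, and their pools are named Con or Stress followed by the genotype. These transgenic mice were bred in-house and their age was not given.

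After removal of nuclei with more than 20% mitochondrial UMIs, 56834 nuclei were left, 5858 to 8474 per pool, with 7534594 to 58081835 UMIs (unique transcripts) per pool. Nuclei were clustered without the 30 genes and named from marker genes as dentate gyrus-like (DG-like, 10396 nuclei), CA1-like (10230), CA2/3-like (6037) and inhibitory neuron-like (INH-like, 5509). Markers of each class were checked in its nuclei, and that of CA2/3-like nuclei was low. *Prox1* was at 216 to 332 CPM (UMIs scaled to the same total in each class and pool) in DG-like nuclei and *Gad2* at 256 to 334 CPM in INH-like nuclei. *Fibcd1* was at 51.8 to 110 CPM in CA1-like nuclei and *Map3k15* at only 3.50 to 16.4 CPM in CA2/3-like nuclei. *Il1r1*, the deleted gene, was at 62.1 and 29.9 CPM in DG-like nuclei of the IL-1R1+/+ pools and at 11.4 and 9.13 CPM in those of the nIL-1R1-/- pools. Microglia-like nuclei numbered 10 and 13 in the PLX5622 pools and 149 to 200 in the others. At a finer cluster resolution, they numbered 0 in both PLX5622 pools and 17 to 51 in the others. A cluster with *Inpp5d* and *Csf1r* among its leading genes stayed unnamed there, with 10 and 13 against 127 to 156 nuclei. It had 2537 CPM of the neuron marker *Syt1*, against 763 CPM in the microglia-like cluster. The 10 and 13 nuclei, and many of the microglia-like nuclei in the other pools, may thus be mixed with neurons, which was not tested. The PLX5622 pools were shallow, with medians of 502 to 721 UMIs per nucleus over the 4 classes, against 940.0 to 8779 in the other 6 pools. Values of pools are given in the order vehicle, PLX5622, IL-1R1+/+ and nIL-1R1-/-, those of the 4 classes run from DG-like over CA1-like and CA2/3-like to INH-like, and a mean ± SD is over the 8 pools. No doublet caller was run. Each pool held 3 mice, so pools are the replicates, and the spread between mice within a pool was not measured.

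Together the 30 genes took up 11758 ± 289 CPM of the UMIs of DG-like nuclei, 11598 ± 318 CPM in CA1-like, 13523 ± 551 CPM in CA2/3-like and 9446 ± 315 CPM in INH-like nuclei. For 9 of the 30, every pool of the highest class lay above every pool of the other 3 classes. Over all genes tested this held for 11.1%. These 9 were *Scn3a*, *Cacna1e* and *Cacna1h* in DG-like nuclei, *Cacna1a* in CA2/3-like nuclei, and *Scn1a*, *Cacna2d2*, *Cacnb4*, *Cacng4* and *Cacng7* in INH-like nuclei. For 7 genes, every pool of the lowest class lay below every pool of the other 3, and with nuclei thinned to 500 UMIs this held for 4. The share over all genes was not computed for the lowest class, so these counts cannot be set against a rate. Thinning, here and below, also left out nuclei with fewer than 500 UMIs. In CA1-like nuclei these were 1034 of 2078 in Con-PLX and 0 of 960 in Con-nIL-1R1-/-, so the set of nuclei changed unevenly between pools. The classes are clusters of the same nuclei, so differences between them are a description and were not tested.

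**Figure D1:**
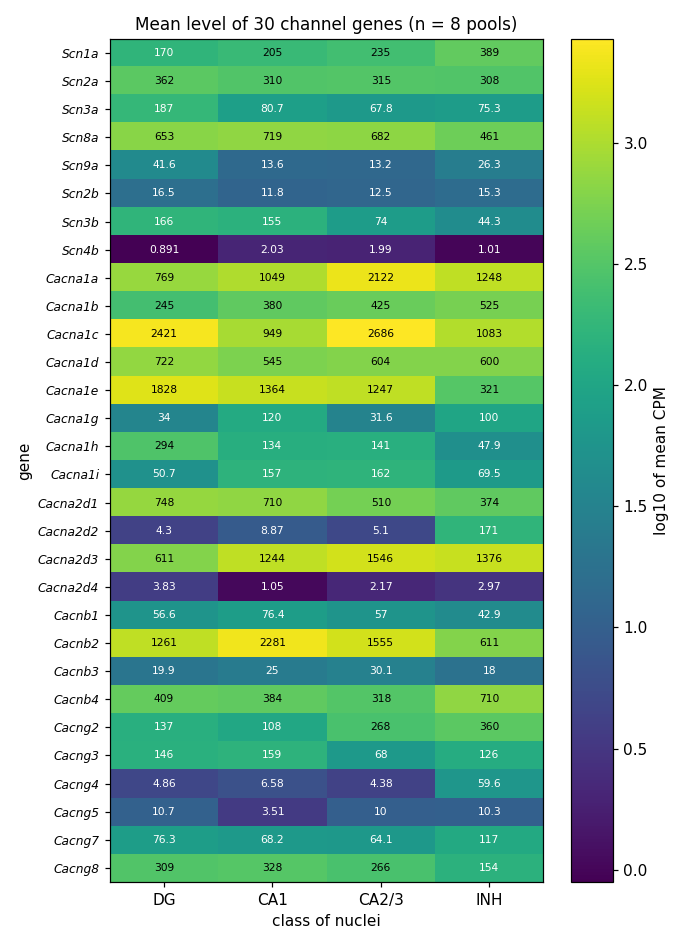
Mean CPM of each gene (rows) over the 8 pools in the 4 classes (columns), with the color on a log10 scale. Within their rows, *Cacna2d2* and *Cacng4* are bright in the INH-like column alone, at 171 and 59.6 CPM, and *Cacna1e* is dim there, at 321 CPM against 1247 to 1828 CPM. Rows of different genes are not scaled by length.

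Among the sodium channel alpha subunits, *Scn8a*, the main subunit of the axon initial segment and of nodes in mature neurons, had 653, 719, 682 and 461 CPM in the 4 classes, and its INH-like pools (416 to 555 CPM) lay below every pool of the other classes. *Scn2a*, which carries action potentials in excitatory neurons early in life and at the proximal initial segment later, was more even, at 362, 309.5, 315 and 308 CPM. *Scn1a*, the alpha subunit on which fast-spiking interneurons depend, was at 389 ± 22.8 CPM in INH-like nuclei and at 169.7 to 235 CPM in the 3 excitatory classes. *Scn3a*, best known from the developing brain, was highest in DG-like nuclei, with 187 ± 28.7 CPM there and 67.8 to 80.7 CPM in the rest. *Scn9a*, better known from sensory neurons, also had its highest mean in DG-like nuclei, at 41.6 ± 12.7 CPM against 26.3 CPM in INH-like nuclei, although the ranges of these classes overlapped (29.66 to 65.2 and 16.6 to 35.5 CPM).

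Of the sodium channel beta subunits, *Scn3b* was at 166, 155, 74.0 and 44.3 CPM, so the DG-like and CA1-like means differed by less than either SD. *Scn2b* had means between 11.8 and 16.5 CPM in all 4 classes. *Scn4b*, the subunit tied to resurgent current in fast-spiking neurons, was near the floor at 0.891 to 2.03 CPM and did not pass the filter on low counts in the test of stress in any class.

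The presynaptic calcium channel genes differed in their peak. *Cacna1a*, the P/Q-type pore, was highest in CA2/3-like nuclei, where it had 1909, 1831, 1792 and 1629 CPM in the control pools and 3079, 2696, 2095 and 1945 CPM in the stress pools. In INH-like nuclei, it had 1204, 1194, 1168 and 1078 CPM in the control pools and 1574, 1484, 1159 and 1123 CPM in the stress pools. CA1-like nuclei had 1051, 965, 866 and 886 CPM in the control pools and 1435, 1285, 936 and 966 CPM in the stress pools, and DG-like nuclei 763, 708, 665 and 669 CPM in the control pools and 962, 1024, 701 and 656 CPM in the stress pools. The lowest CA2/3-like pool, at 1629 CPM, thus lay above the highest pool of any other class. *Cacna1b*, the N-type pore, had its highest mean in INH-like nuclei (525 ± 39.6 CPM) and its lowest in DG-like nuclei (245 ± 15.8 CPM), whose pools lay below all others.

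*Cacna1e*, the R-type pore, went the other way. DG-like nuclei had 1877, 1725, 1814 and 1970.1 CPM in the control pools and 1868, 1606, 1933 and 1833 CPM in the stress pools, CA1-like nuclei had 1417, 1318, 1290.4 and 1453 CPM in the control pools and 1408, 1293, 1325 and 1409 CPM in the stress pools, and CA2/3-like nuclei had 1288, 1163, 1224 and 1324 CPM in the control pools and 1226, 1090.4, 1405 and 1256 CPM in the stress pools. INH-like nuclei had only 241 to 422 CPM, so the INH-like and excitatory pools did not overlap.

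The L-type pores also split by class. *Cacna1c*, the main L-type subunit of brain and heart, had 2557, 2333, 2238 and 2394 CPM in the control pools and 2533, 2456, 2523 and 2332 CPM in the stress pools in DG-like nuclei. In CA2/3-like nuclei, it had 2835, 2494, 2530.2 and 2499 CPM in the control pools and 2805, 2604, 3025 and 2697 CPM in the stress pools. CA1-like nuclei held less, with 1035, 1128, 797 and 813 CPM in the control pools and 1002, 1125, 860.3 and 830.0 CPM in the stress pools, and INH-like nuclei had 1084, 1103, 1041 and 1035 CPM in the control pools and 1125, 1148, 1079 and 1048 CPM in the stress pools. The DG-like and CA2/3-like pools of *Cacna1c* overlapped and lay above all CA1-like and INH-like pools. *Cacna1d*, the L-type subunit that opens at more negative potentials, was more even at 722, 545, 604 and 599.8 CPM.

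Each T-type pore had a pattern of its own. *Cacna1h* was highest in DG-like nuclei (294 ± 83.1 CPM), intermediate in CA2/3-like (141 ± 31.8 CPM) and CA1-like nuclei (134 ± 39.4 CPM), whose ranges overlapped, and lowest in INH-like nuclei (47.9 ± 14.5 CPM), below all other pools. *Cacna1g* was highest in CA1-like and INH-like nuclei (80.3 to 166 and 71.2 to 139 CPM over the pools) with means of 34.0 and 31.6 CPM in DG-like and CA2/3-like nuclei. *Cacna1i* was at 157 and 162 CPM in CA1-like and CA2/3-like nuclei and at 50.7 and 69.5 CPM in DG-like and INH-like nuclei.

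Of the alpha2delta genes, *Cacna2d3* was high outside DG-like nuclei. INH-like nuclei had 1378, 1178, 1556 and 1581 CPM in the control pools and 1201, 1244, 1493 and 1375 CPM in the stress pools. CA2/3-like nuclei had 1454, 1397, 1884 and 1723 CPM in the control pools and 1386, 1191, 1657 and 1674 CPM in the stress pools, and CA1-like nuclei had 1187, 1159, 1379 and 1379.8 CPM in the control pools and 1112, 1079, 1340.2 and 1314 CPM in the stress pools. DG-like pools were below all of these, at 572 to 642 CPM. *Cacna2d1*, the receptor for the gabapentinoid drugs, was at 748, 709.7, 509.7 and 374 CPM. *Cacna2d2*, the other gabapentinoid receptor, was at 171 ± 36.3 CPM in INH-like nuclei and at 4.30 to 8.87 CPM elsewhere. *Cacna2d4*, known from the retina, had a mean of at most 3.83 CPM in any neuronal class.

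Of the beta subunit genes, *Cacnb2* was highest in excitatory nuclei and *Cacnb4* in INH-like nuclei. For *Cacnb2*, CA1-like nuclei had 2446, 1961, 2431 and 2449 CPM in the control pools and 1919.8, 1643, 2759 and 2638 CPM in the stress pools. CA2/3-like nuclei had 1571, 1587, 1690.3 and 1763 CPM in the control pools and 1260.3, 1154, 1633 and 1778 CPM in the stress pools, and DG-like nuclei 1270.3, 1231, 1311 and 1361 CPM in the control pools and 1121, 1092, 1365 and 1338 CPM in the stress pools. The INH-like pools, with 667, 816, 537 and 639.7 CPM in the control pools and 557, 492, 584 and 593 CPM in the stress pools, lay below every excitatory pool. *Cacnb4*, whose loss causes seizures and ataxia in mice, had 721, 808, 682 and 727 CPM in the control pools and 702, 589, 752 and 697 CPM in the stress pools in INH-like nuclei and means of 318 to 409 CPM in the excitatory classes. *Cacnb1* ranged from 42.9 CPM in INH-like to 76.4 CPM in CA1-like nuclei, and *Cacnb3* from 18.0 CPM in INH-like to 30.1 CPM in CA2/3-like nuclei.

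In the gamma family, *Cacng8*, the AMPA receptor regulator that is richest in hippocampus, was at 309, 328, 266 and 154 CPM, lowest in INH-like nuclei. *Cacng2* (stargazin) was highest in INH-like nuclei (359.8 ± 40.8 CPM) and lowest in CA1-like nuclei (108 ± 18.3 CPM). *Cacng3* had 68.0 CPM in CA2/3-like nuclei, below every pool of the other classes, which had means of 126 to 159 CPM. *Cacng4* was at 59.6 ± 15.1 CPM in INH-like nuclei and at 4.38 to 6.58 CPM in the excitatory classes. *Cacng7* was at 117 ± 16.6 CPM in INH-like nuclei against 64.1 to 76.3 CPM, and the class means of *Cacng5* stayed at or below 10.7 CPM.

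CPM values are not divided by gene length, and the genes span 12.3 (*Scn2b*) to 818 kb (*Cacna2d3*) of the genome and 2.96 (*Cacng8*) to 25.6 kb (*Cacna1e*) of exons in GENCODE vM39. Levels of different genes were therefore compared only per length. Per kb of exons, the highest were *Cacna1c* in DG-like nuclei (108 CPM per kb), *Cacnb2* in CA1-like nuclei (156 CPM per kb) and *Cacna2d3* in CA2/3-like and in INH-like nuclei (152 and 136 CPM per kb). Per kb of gene span, which suits nuclei that hold unspliced RNA, *Cacng8* was highest in all 4 classes (6.03 to 12.8 CPM per kb). The order between genes thus depended on the length used, whereas the order of the classes for a gene does not involve it.

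INH-like nuclei formed 3 clusters, of which 1 was led by *Lhx6* and *Pvalb* (3048 nuclei), 1 by *Vip* and *Adarb2* (1604) and 1 by *Hapln1* and *Egfr* (857), and the alpha2delta genes were divided between them. *Cacna2d1* had 1763 ± 272 CPM in the *Hapln1* and *Egfr* cluster against 139 ± 49.1 CPM in the *Lhx6* and *Pvalb* cluster and 217 ± 37.7 CPM in the *Vip* and *Adarb2* cluster (SD, n = 8 pools). *Cacna2d2* had 272 ± 59.4 CPM in the *Lhx6* and *Pvalb* cluster, with 43.5 ± 12.1 and 33.7 ± 12.2 CPM in the *Vip* and *Adarb2* and the *Hapln1* and *Egfr* clusters. *Cacna2d3* was at 364 ± 74.9 CPM in the *Hapln1* and *Egfr* cluster and at 1510.1 ± 220.3 and 1555 ± 152 CPM in the other two. In all 3 cases, the cluster that stood apart did so in every pool. The *Lhx6* and *Pvalb* cluster also had *Gna14* and *Crhbp* among its leading genes. At the finer resolution, *Pvalb* led an INH-like cluster of 1667 nuclei and *Gna14*, *Crhbp* and *Sst* another of 1334. The *Lhx6* and *Pvalb* cluster is therefore not read as *Pvalb* cells alone.

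**Figure D2:**
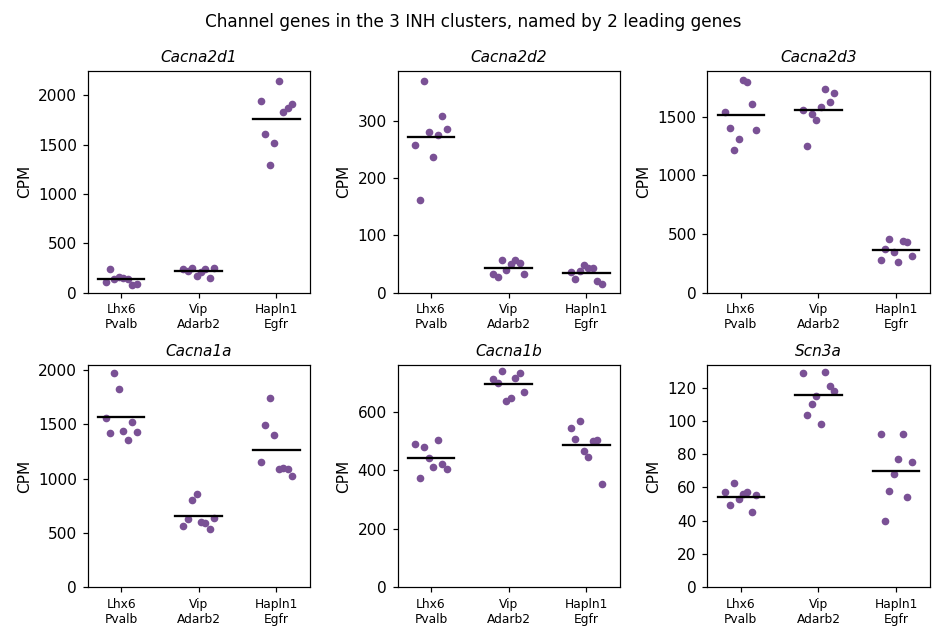
CPM of 6 channel genes in the 3 INH-like clusters, each named on the horizontal axis by 2 of its leading genes. Each point is 1 of the 8 pools and each line their mean, on axes that start at 0. The *Hapln1* and *Egfr* points of *Cacna2d1* sit at 1294 to 2144 CPM, and no point of the other clusters exceeds 254 CPM.

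The presynaptic pores were also uneven among INH-like clusters. *Cacna1a* had 1564 ± 219.8 CPM in the *Lhx6* and *Pvalb* cluster, 1261 ± 256 CPM in the *Hapln1* and *Egfr* cluster and 653 ± 116 CPM in the *Vip* and *Adarb2* cluster. *Cacna1b* was the reverse, highest in the *Vip* and *Adarb2* cluster at 694 ± 38.6 CPM, where its lowest pool lay above every pool of the other clusters. *Scn3a* was likewise highest there (116 ± 11.2 CPM against 54.6 ± 5.40 and 69.6 ± 18.5 CPM). *Scn1a* was even, with 393 ± 30.6, 379 ± 27.1 and 398 ± 57.2 CPM, differences below the spread between pools.

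Glia-like nuclei held UMIs of most channel genes. In oligodendrocyte-like nuclei (7 pools with at least 100000 UMIs of the class), 23 of 30 genes had a mean below that of every neuronal class, and *Cacna1e*, for example, was still at 257 ± 98.7 CPM, a level that overlaps the INH-like pools (241 to 422 CPM). The count of genes below every neuronal class was 23 in endothelial-like, 15 in astrocyte-like, 5 in oligodendrocyte precursor-like and 4 in microglia-like nuclei. Free RNA was not measured, and it cannot be told apart here from expression in these cells or from doublets. Many of the microglia-like nuclei may be mixed with neurons, as given above, which was not tested. Above every neuronal class were *Cacng4* in oligodendrocyte precursor-like nuclei (521 ± 183 CPM, 7 pools, against 59.6 CPM in INH-like nuclei) and *Cacna2d4* in oligodendrocyte-like nuclei (84.6 ± 37.8 CPM, against means of at most 3.83 CPM in neurons). *Cacnb4* in oligodendrocyte-like nuclei (391 ± 84.9 CPM) lay within the range of the excitatory means. The means of *Scn4b* and *Cacna2d4* in oligodendrocyte precursor-like nuclei were also above those of neurons but rest on 7 and 15 UMIs.

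Stress was compared with control over the 4 pairs of pools that shared a diet or genotype. In CA1-like nuclei, *Cacna1h*, a T-type pore, was higher after stress. It had 125, 89.97, 95.7 and 103 CPM in the control pools and 204, 167, 154 and 137 CPM in the stress pools. No control pool reached the lowest stress pool. It was the only gene of the 30 that passed the test (log2 fold change 0.64 ± 0.12 (SE), edgeR quasi-likelihood test, adjusted p = 0.0216). Called genes made up 0.596% of all genes tested in CA1-like nuclei, and at an unadjusted p under 0.05 there were 5 of 28 channel genes (17.9%) against 15.4% of all genes. Here and below, a gene is called, or passes, at an adjusted p under 0.05, where the p was adjusted over all genes of the class by the Benjamini-Hochberg method. In the DG-like, CA2/3-like and INH-like classes, edgeR called 0 of 29, 28 and 29 genes tested, where 0.0596%, 0.111% and 0.072% of all genes were. At an unadjusted p under 0.05 there were 3, 7 and 6 of them (10.3, 25.0 and 20.7%), against 11.5, 16.8 and 8.40% of all genes. DESeq2 called *Cacna1h* in DG-like and *Cacna1a* in CA2/3-like nuclei and 0 in INH-like nuclei. All shares of genes called, here and below, are those of the main edgeR fits. None is given for DESeq2 or the other alternatives, so their calls cannot be set against such a rate.

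The stress-to-control ratios of *Cacna1h* in CA1-like nuclei were 1.64 (1.44 to 1.86), 1.86 (1.50 to 2.31), 1.61 (1.40 to 1.85) and 1.34 (1.17 to 1.52) (95% intervals for counting error only). All 4 intervals lay above 1. Within the 4 sublibraries, the stress pool was higher in 16 of 16 comparisons of paired pools. In DG-like, CA2/3-like and INH-like nuclei it was higher in 15, 14 and 11 of 16. Sublibraries split the nuclei of the same pools, so such comparisons, also those of *Cacna2d1* below, are not independent replicates. The median depth of CA1-like nuclei was 2256, 502, 3258 and 4614 UMIs in the control pools and 940.0, 538, 2914 and 2509.5 UMIs in the stress pools, so the stress pool was shallower in the vehicle and nIL-1R1-/- pairs and near its control in the other two. The call was lost in fits without the vehicle or the IL-1R1+/+ pair (adjusted p = 0.273 and 0.059). It was also lost with nuclei thinned to 500 UMIs (log2 fold change 0.63, adjusted p = 0.0636), where nuclei with fewer UMIs were left out. The same held with clusters at a finer resolution (adjusted p = 0.111), without the top 5% of nuclei by UMIs (adjusted p = 0.0544) and without the term for the pair (adjusted p = 0.537).

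The difference depended on which nuclei were taken as CA1-like. In the deeper of the CA1-like clusters, *Cacna1h* had 124, 117, 93.6 and 103 CPM in the control pools and 187, 166, 152 and 142 CPM in the stress pools, higher in all 4 pairs. This cluster held 76.3, 16.3, 91.1 and 96.25% of CA1-like nuclei in the control pools and 31.5, 11.5, 89.8 and 79.4% in the stress pools. Both CA1-like clusters had *Fibcd1* among their leading genes, and values of the shallower one are not given. A cluster led by *Igfn1* scored best as CA1 but had no CA1 marker among its leading genes and was left out. It held 98, 107, 25 and 58 nuclei of the control pools and 688, 77, 476 and 459 of the stress pools, with *Cacna1h* at 31.0 to 143 CPM. With it and another such cluster added to the CA1-like nuclei, the log2 fold change was 0.27 ± 0.15 and the adjusted p 0.422.

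*Cacna1h* was higher after stress in every pair in the other classes too. DG-like nuclei had 277, 212, 222 and 228 CPM in the control pools and 449, 381, 300.1 and 281 CPM in the stress pools, again without overlap (log2 fold change 0.53 ± 0.11 (SE), adjusted p = 0.109). CA2/3-like nuclei had 141, 113, 114 and 120.2 CPM in the control pools and 194, 183, 119 and 145 CPM in the stress pools (log2 fold change 0.34 ± 0.12 (SE), adjusted p = 0.184). The groups overlapped there, and the IL-1R1+/+ pair differed by only 4.65%. INH-like nuclei had 42.7, 50.5, 32.0 and 35.1 CPM in the control pools and 65.9, 72.2, 46.7 and 37.8 CPM in the stress pools (log2 fold change 0.42 ± 0.14 (SE), adjusted p = 0.365), and the groups overlapped there as well. Of the 10466 genes tested in all 4 classes, 1.22% were higher and 0.678% lower in every pair of every class. Among the 28 channel genes tested in all 4, *Cacna1h* was the only one of the first kind and *Cacna2d1* the only one of the second. The classes come from the same pools, so they are not independent replicates of this pattern.

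**Figure D3:**
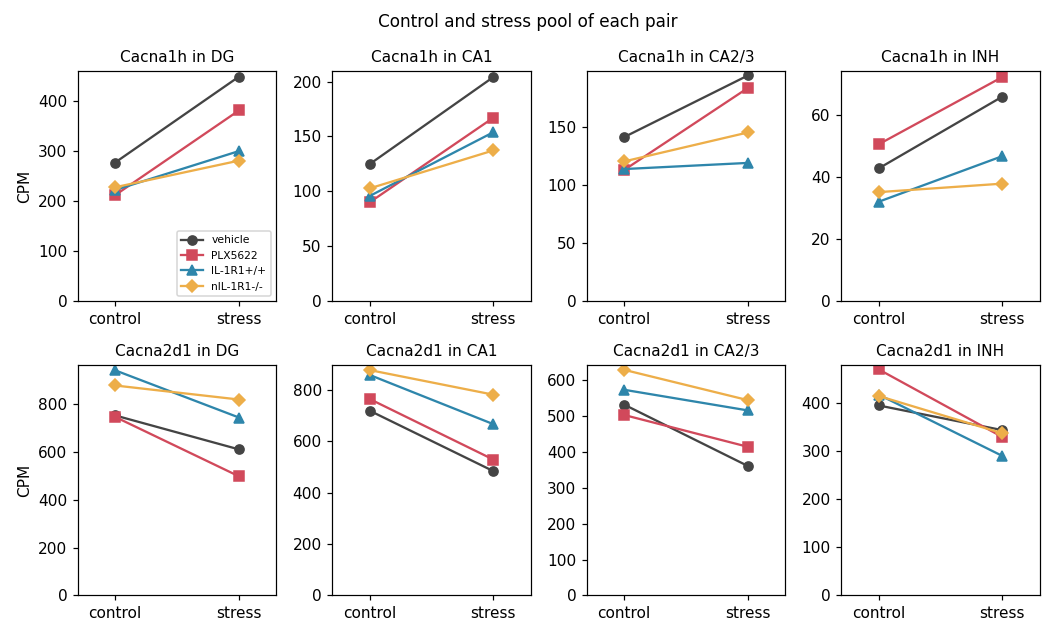
CPM of *Cacna1h* (top) and *Cacna2d1* (bottom) in the control and the stress pool of each pair, with 1 column of panels per class. Each line joins the 2 pools of a pair, and every axis starts at 0. All 16 lines of *Cacna1h* rise to the right and all 16 of *Cacna2d1* fall.

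*Cacna2d1* was lower after stress in every pair of every class, but did not pass the test in any. In CA1-like nuclei, it had 719, 764, 858 and 877 CPM in the control pools and 484, 529, 666 and 781 CPM in the stress pools (log2 fold change -0.43 ± 0.11 (SE), adjusted p = 0.0583). DG-like nuclei had 752, 746, 940.2 and 877 CPM in the control pools and 610.0, 498, 743 and 818 CPM in the stress pools (log2 fold change -0.35 ± 0.12 (SE), adjusted p = 0.243). In both, the nIL-1R1-/- stress pool was above the lowest control pools, so the groups overlapped. CA2/3-like nuclei had 533, 504, 574 and 629.7 CPM in the control pools and 361, 415, 516 and 545 CPM in the stress pools (log2 fold change -0.32 ± 0.11 (SE), adjusted p = 0.171), with overlap. INH-like nuclei had 395, 469.5, 417 and 414 CPM in the control pools and 343, 329, 289.6 and 337 CPM in the stress pools, with all stress pools below all control pools (log2 fold change -0.40 ± 0.10 (SE), adjusted p = 0.16). Within sublibraries, the stress pool was lower in 16 of 16 comparisons in each excitatory class and in 12 of 16 in INH-like nuclei. DESeq2 called *Cacna2d1* in CA1-like nuclei (adjusted p = 0.039).

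In INH-like nuclei, the share of the *Hapln1* and *Egfr* cluster, the one rich in *Cacna2d1*, was also lower after stress in every pair. It made up 16.3, 15.95, 18.3 and 17.4% of INH-like nuclei in the control pools and 14.6, 13.8, 13.5 and 14.8% in the stress pools. The part of this cluster's share in the lower *Cacna2d1* was not tested. Within that cluster, *Cacna2d1* had 1938, 1605, 2144 and 1827 CPM in the control pools and 1294, 1518, 1866 and 1915 CPM in the stress pools, lower in 3 of 4 pairs. In the *Lhx6* and *Pvalb* cluster, it was lower in 3 of 4 pairs, and in the *Vip* and *Adarb2* cluster in 2 of 4. In the deeper DG-like cluster, *Cacna2d1* had 754, 812, 949 and 880.2 CPM in the control pools and 631, 545, 747 and 830.1 CPM in the stress pools, lower in all 4. The deeper CA1-like cluster had 724, 753, 864 and 879 CPM in the control pools and 484, 499, 669.8 and 782 CPM in the stress pools, also lower in all 4. In Con-PLX and Stress-PLX, the deeper clusters held only 20.9 and 14.5% of DG-like and 16.3 and 11.5% of CA1-like nuclei. Values of the shallower clusters are not given.

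*Cacna1h* lies on chromosome 17, 25593259 to 25652764, minus strand, and *Cacna2d1* on chromosome 5, 16139372 to 16579509, plus strand (GRCm39 in GENCODE vM39, the whole gene with exons and introns). The first spans 59.5 kb and the second 440.1 kb.

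**Figure D4:**
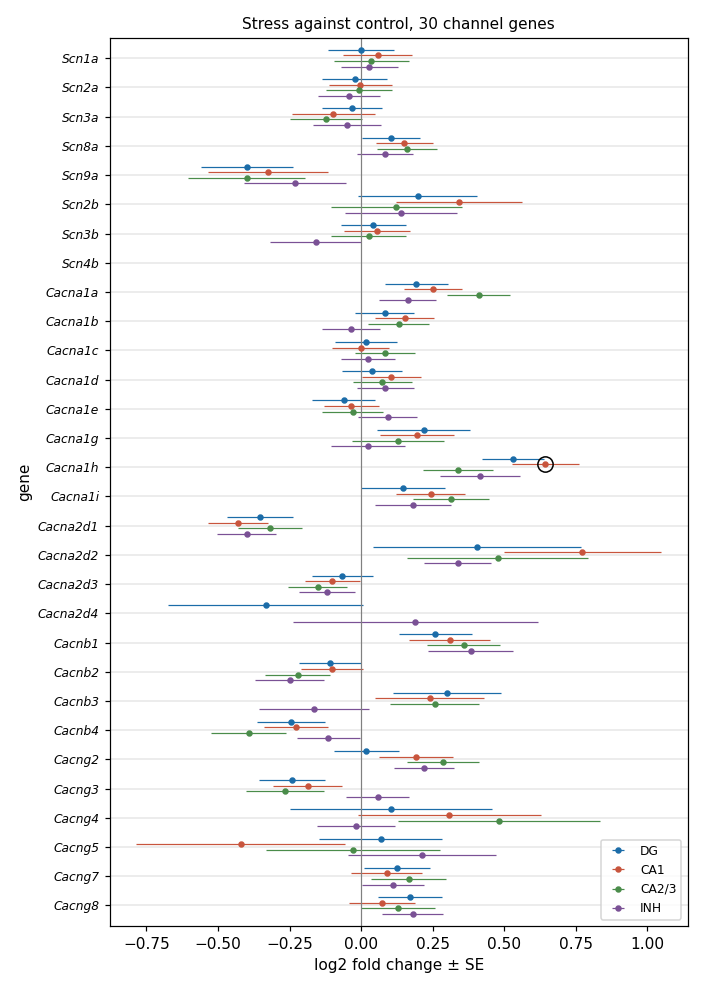
Log2 fold change of stress against control (horizontal axis, ± SE) for the 30 genes (rows) in the 4 classes (colors), from edgeR fits with a term for the pair. The ring marks the single call, *Cacna1h* in CA1-like nuclei at 0.64, and the *Cacna2d1* points sit between -0.43 and -0.32. *Scn4b* has no point, since it was not tested.

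The other pore-forming calcium genes did not pass the test. *Cacna1a* in CA2/3-like nuclei (given above pool by pool) was higher in every pair, with every stress pool above every control pool (log2 fold change 0.41 ± 0.11 (SE), adjusted p = 0.0945), and DESeq2 called it (adjusted p = 0.0318). Its log2 fold changes in DG-like, CA1-like and INH-like nuclei were 0.19 ± 0.11, 0.25 ± 0.10 and 0.16 ± 0.10. *Cacna1i*, also a T-type pore, was at 0.31 ± 0.13 in CA2/3-like and 0.24 ± 0.12 in CA1-like nuclei (adjusted p = 0.248 and 0.343). The log2 fold changes of *Cacna1c*, *Cacna1d* and *Cacna1e* lay between -0.06 and 0.11 in the 4 classes.

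*Cacna1a* and *Cacnb2* are given by pair, since the experiments were run on different mice (*Cacnb2* was chosen here after its values were seen). The stress-to-control ratios of *Cacna1a* in CA2/3-like nuclei were 1.61 (1.56 to 1.66), 1.47 (1.39 to 1.56), 1.17 (1.13 to 1.21) and 1.19 (1.15 to 1.23) with 95% counting intervals, larger in the vehicle and PLX5622 pairs than in the IL-1R1+/+ and nIL-1R1-/- pairs. In CA1-like nuclei they were 1.37 (1.303 to 1.43), 1.33 (1.24 to 1.43), 1.08 (1.03 to 1.14) and 1.09 (1.04 to 1.14). *Cacnb2*, the beta subunit gene highest in CA1-like nuclei, had ratios of 0.785 (0.757 to 0.814), 0.838 (0.793 to 0.885), 1.13 (1.10 to 1.17) and 1.08 (1.05 to 1.11) there, below 1 in the first experiment and above 1 in the second. Its fitted log2 fold change over all 4 pairs was -0.10 ± 0.11 (adjusted p = 0.706). With the clusters named above added to the CA1-like nuclei it was -0.57 ± 0.11 and was called (adjusted p = 0.0388). The difference between the experiments was not tested.

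The make-up of these classes by cluster also differed between stress and control, and its part in these ratios was not tested. In CA2/3-like nuclei, the shallower cluster led by *Mndal* and *Adamts14* held 28.6, 86.3, 15.4 and 4.36% of nuclei in the control pools and 71.0, 93.1, 10.9 and 23.4% in the stress pools. In CA1-like nuclei, the shallower cluster held 23.7, 83.7, 8.90 and 3.75% and 68.5, 88.5, 10.2 and 20.6%. Within the *Mndal* and *Adamts14* cluster alone, *Cacna1a* had 2042, 1671, 1785 and 1734 CPM in the control pools and 3103, 2634, 2089 and 2115 CPM in the stress pools, and within the cluster led by *Ifi203* it had 2212, 2338, 1957 and 1791 CPM in the control pools and 3539, 3279.7, 2202 and 2043 CPM in the stress pools. It was higher after stress in all 4 pairs of both clusters. Values of the other CA2/3-like clusters, led by *Col6a1* and *Nkd2* (730 nuclei) and by *Fyb2* and *Lrp2* (445 nuclei), are not given. *Cacnb2* in the deeper CA1-like cluster had 2483, 2284, 2446 and 2453 CPM in the control pools and 2185, 2117, 2782 and 2704 CPM in the stress pools. It was lower after stress in the vehicle and PLX5622 pairs and higher in the others, as in the whole class.

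Among the auxiliary calcium genes, *Cacnb4* in CA2/3-like nuclei had the smallest p among the channel genes of that class on the lower side. It had 269, 409, 399.9 and 367 CPM in the control pools and 271, 240.1, 285 and 299.9 CPM in the stress pools (log2 fold change -0.39 ± 0.13 (SE), adjusted p = 0.152), but the vehicle pools were almost level and the groups overlapped. *Cacnb1* was on the higher side in all 4 classes, with log2 fold changes of 0.26 ± 0.13, 0.31 ± 0.14, 0.36 ± 0.13 and 0.38 ± 0.15 and adjusted p between 0.18 and 0.465. *Cacna2d2* in INH-like nuclei, where it is expressed, was at 0.34 ± 0.12 (adjusted p = 0.383).

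No sodium channel gene passed the test. *Scn1a*, *Scn2a* and *Scn3a* had log2 fold changes between -0.12 and 0.06. *Scn8a* lay between 0.08 and 0.16. *Scn9a* was on the lower side, at -0.40 ± 0.16 in DG-like nuclei (adjusted p = 0.348). The gamma genes gave no call, and *Cacng8* lay between 0.07 and 0.18.

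Counted by direction, 5 of 29 channel genes in DG-like, 5 of 28 in CA1-like, 6 of 28 in CA2/3-like and 6 of 29 in INH-like nuclei were higher after stress in all 4 pairs, against 10.7, 13.3, 13 and 8.99% of all genes tested. Lower in all 4 pairs were 3 of 29, 3 of 28, 2 of 28 and 1 of 29, against 9.49, 9.67, 11.9 and 7.97%. The median log2 fold change over the channel genes was 0.04, 0.08, 0.10 and 0.06 in the 4 classes, beside medians over all genes of -0.0016, 0.014, -0.003 and 0.0047. The shares of channel genes higher in all 4 pairs lay above those of all genes in the 4 classes, which rests on at most 6 genes a class and was not tested.

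PLX5622 chow was compared with vehicle chow, 2 pools against 2, to ask whether loss of microglia goes with other channel levels. No channel gene was called in any class, of 29, 28, 28 and 29 tested, while 0.0426, 1.85, 0 and 0.024% of all genes were called by edgeR. At an unadjusted p under 0.05 there were 4, 4, 1 and 3 (13.8, 14.3, 3.57 and 10.3%, against 7.37, 12.02, 5.50 and 5.8% of all genes), and DESeq2 called 0. *Cacng4*, the AMPA receptor regulator with its highest level in oligodendrocyte precursor-like nuclei, had the largest fold change. In DG-like nuclei it had 2.07, 10.1, 3.46 and 2.58 CPM in the control pools and 3.84, 11.7, 3.21 and 1.90 CPM in the stress pools (log2 fold change 2.03 ± 0.51 (SE), adjusted p = 0.261). The PLX5622 values rest on 8 and 13 UMIs, and both pools were above all 6 others. The same held in CA2/3-like nuclei, which had 2.61, 6.12, 2.51 and 2.48 CPM in the control pools and 4.76, 10.9, 2.57 and 3.09 CPM in the stress pools (log2 fold change 1.36 ± 0.51 (SE), adjusted p = 0.884). It also held in CA1-like nuclei, with 14.9 and 10.8 CPM against at most 9.67 CPM (log2 fold change 1.07 ± 0.42 (SE), adjusted p = 0.276). INH-like nuclei had 76.4 and 78.1 CPM against at most 74.9 CPM (log2 fold change 0.35 ± 0.21 (SE), adjusted p = 0.874).

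Markers of other cells moved with the diet. The summed level of 6 astrocyte markers in DG-like nuclei was 119 and 129.9 CPM in the PLX5622 pools and 51.7 to 71.6 CPM in the other 6. For 6 oligodendrocyte markers it was 558 and 613 against 392 to 475 CPM, whereas 5 markers of oligodendrocyte precursors stood at 8.83 and 11.7 against 9.31 to 14.1 CPM. In CA1-like nuclei, these precursor markers stood at 15.53 and 21.6 against 9.29 to 15.47 CPM, with both PLX5622 pools above all others. They overlapped in CA2/3-like (14.9 and 22.9 against 15.1 to 27.5 CPM) and INH-like nuclei (47.3 and 47.8 against 43.9 to 76.9 CPM). In CA1-like nuclei, 9 INH markers summed to 864 and 1034 CPM in the PLX5622 pools and to 266 to 516 CPM in the others. Their part in the differences by diet was not tested. The depth of the PLX5622 pools cannot be told apart from the diet.

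Other genes had the smallest p for the diet in the remaining classes and directions. In CA1-like nuclei, *Cacnb4* had 346, 530.1, 383 and 392 CPM in the control pools and 368, 387, 326 and 336 CPM in the stress pools (log2 fold change 0.43 ± 0.16 (SE), adjusted p = 0.244). *Cacnb1* in the same nuclei had 74.5, 47.9, 71.7 and 72.6 CPM in the control pools and 124, 74.9, 73.2 and 72.4 CPM in the stress pools (log2 fold change -0.59 ± 0.21 (SE), adjusted p = 0.206). Both PLX5622 pools of *Cacnb4* lay above both vehicle pools, while those of *Cacnb1* overlapped them. In CA2/3-like nuclei, the smallest p on the lower side was that of *Cacnb1*, with 53.4, 41.1, 51.6 and 51.6 CPM in the control pools and 75.6, 57.8, 63.3 and 61.7 CPM in the stress pools (log2 fold change -0.28 ± 0.20 (SE), adjusted p = 0.915), where the diets overlapped. *Cacng3* in DG-like nuclei had 159, 119, 144 and 209.8 CPM in the control pools and 148, 103, 141 and 145 CPM in the stress pools (log2 fold change -0.42 ± 0.18 (SE), adjusted p = 0.596), with both PLX5622 pools below all others. In INH-like nuclei, *Cacna1e* had 292, 389, 241 and 307 CPM in the control pools and 372, 422, 245 and 300.2 CPM in the stress pools (log2 fold change 0.37 ± 0.15 (SE), adjusted p = 0.784), and *Cacna2d2* had 160.5, 96.9, 162 and 174 CPM in the control pools and 224, 179.9, 196 and 173 CPM in the stress pools (log2 fold change -0.41 ± 0.18 (SE), adjusted p = 0.822). The vehicle and PLX5622 pools did not overlap for *Cacna1e* and overlapped for *Cacna2d2*.

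**Figure D5:**
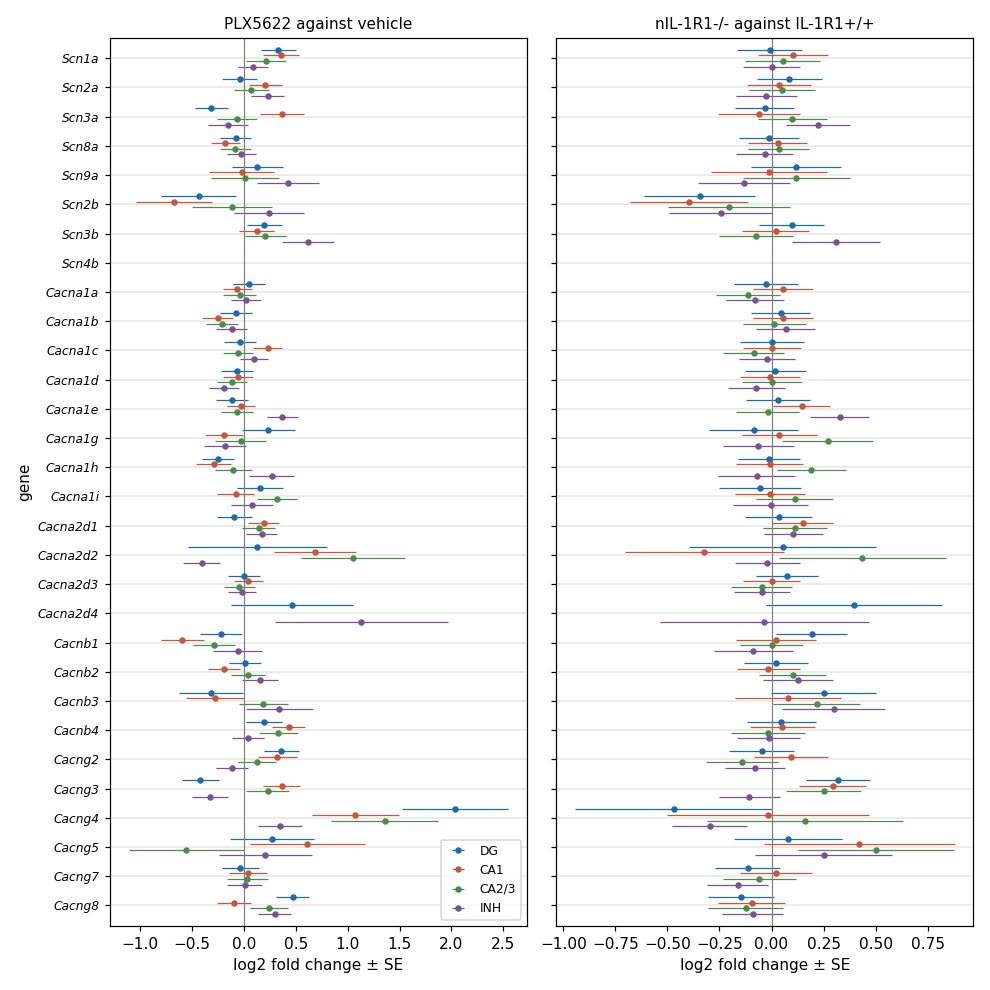
Log2 fold change (horizontal axes, ± SE) of PLX5622 against vehicle (left) and of nIL-1R1-/- against IL-1R1+/+ (right) for the 30 genes (rows) in the 4 classes (colors), from the same edgeR fits. No point carries a ring, since none passed the test. *Cacng4* in DG-like nuclei lies farthest out on the left at 2.03, and on the right all points lie between -0.47 and 0.50.

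Deletion of *Il1r1* in glutamatergic neurons was compared with IL-1R1+/+ in the same way. No channel gene was called in any of the 4 classes by edgeR or DESeq2, and over all genes 0.00852, 0, 0 and 0% were. At an unadjusted p under 0.05 there was 1 channel gene in INH-like nuclei and 0 in the excitatory classes, against 2.06% of all genes in INH-like and 1.76 to 1.95% in excitatory nuclei. The fitted log2 fold changes ranged from -0.47 to 0.50.

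The 1 gene was *Cacna1e* in INH-like nuclei (log2 fold change 0.33 ± 0.14 (SE), adjusted p = 1), whose values are given above. Both nIL-1R1-/- pools lay above both IL-1R1+/+ pools. *Cacng3* had the smallest p on the higher side in each excitatory class. It had 159, 119, 144 and 209.8 CPM in the control pools and 148, 103, 141 and 145 CPM in the stress pools in DG-like nuclei (log2 fold change 0.32 ± 0.16 (SE), adjusted p = 1), 121, 148, 165 and 240.3 CPM in the control pools and 110.3, 132, 177 and 176 CPM in the stress pools in CA1-like nuclei (log2 fold change 0.29 ± 0.16 (SE), adjusted p = 1) and 69.1, 73.4, 63.7 and 90.4 CPM in the control pools and 53.9, 62.2, 67.0 and 64.4 CPM in the stress pools in CA2/3-like nuclei (log2 fold change 0.25 ± 0.18 (SE), adjusted p = 1). In all 3, Con-nIL-1R1-/- was the highest of the 8 pools, and the stress pools of both genotypes were close.

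On the lower side, the smallest p belonged to *Scn2b* in DG-like and CA1-like nuclei. The DG-like nuclei had 18.4, 20.2, 14.1 and 12.3 CPM in the control pools and 21.3, 9.92, 20.9 and 14.8 CPM in the stress pools (log2 fold change -0.35 ± 0.27 (SE), adjusted p = 1). CA1-like nuclei had 13.2, 9.06, 11.1 and 8.79 CPM in the control pools and 14.0, 7.20, 18.0 and 12.9 CPM in the stress pools (log2 fold change -0.40 ± 0.28 (SE), adjusted p = 1). In both, the genotypes overlapped. In CA2/3-like nuclei it was *Cacng2*, with 226, 279.8, 251 and 208 CPM in the control pools and 314, 259.8, 304 and 298 CPM in the stress pools (log2 fold change -0.14 ± 0.17 (SE), adjusted p = 1). In INH-like nuclei it was *Cacng4*, with 55.9, 76.4, 55.2 and 47.0 CPM in the control pools and 74.9, 78.1, 50.8 and 38.2 CPM in the stress pools (log2 fold change -0.30 ± 0.18 (SE), adjusted p = 1). The genotypes overlapped for *Cacng2* and did not for *Cacng4*.

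Whether the difference with stress depended on the genotype or on the diet was tested with interaction terms, which set 1 pair against the other 3. The other 3 pairs came from both experiments. Neither term can therefore be told apart from a difference between the experiments, which used different mice. No channel gene was called for the genotype, where 0% of all genes were called in DG-like, 0% in CA1-like, 0% in CA2/3-like and 0% in INH-like nuclei. No channel gene was called for the diet either, where 0.337, 0.299, 0.0236 and 0.14% of all genes were. DESeq2 also called 0 for both. At an unadjusted p under 0.05 there were 1, 0, 0 and 1 for the genotype, against 4.62, 4.26, 2.93 and 3.75% of all genes. For the diet there were 8, 3, 4 and 4 (27.6, 10.7, 13.8 and 13.8%), against 12.2, 9.03, 9.58 and 8.70% of all genes.

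For *Cacna1h*, the difference with stress was smallest in the nIL-1R1-/- pair of DG-like, CA1-like and INH-like nuclei, but in the IL-1R1+/+ pair of CA2/3-like nuclei. The genotype terms in DG-like and CA1-like nuclei, -0.30 ± 0.26 and -0.32 ± 0.27 on the log2 scale, did not pass the test (adjusted p = 0.987 and 0.993). Those in CA2/3-like and INH-like nuclei, -0.11 ± 0.31 and -0.44 ± 0.31, did not pass either. The diet terms in DG-like and CA1-like nuclei were 0.22 ± 0.21 and 0.21 ± 0.28 (adjusted p = 0.724 and 0.883). For *Cacna2d1*, the genotype terms were 0.35 ± 0.28 and 0.34 ± 0.25 in DG-like and CA1-like nuclei (adjusted p = 0.987 and 0.993), and the diet terms -0.49 ± 0.18 and -0.24 ± 0.23 (adjusted p = 0.269 and 0.832).

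For the diet term, the smallest p in DG-like and INH-like nuclei belonged to beta subunit genes. *Cacnb4* in DG-like nuclei had 402, 521, 425 and 420.2 CPM in the control pools and 374, 343, 382 and 405 CPM in the stress pools (interaction -0.65 ± 0.18, adjusted p = 0.156). *Cacnb2* in INH-like nuclei, given above, had an interaction of -0.75 ± 0.21 (adjusted p = 0.328). For both, Con-PLX was the highest of the control pools and Stress-PLX the lowest of the stress pools. *Scn3a* in CA1-like nuclei had 80.6, 68.6, 89.7 and 86.1 CPM in the control pools and 65.3, 110.2, 75.2 and 70.1 CPM in the stress pools (0.89 ± 0.29, adjusted p = 0.303), and *Scn1a* in CA2/3-like nuclei had 237, 198, 238 and 238 CPM in the control pools and 231, 318, 206 and 218 CPM in the stress pools (0.75 ± 0.24, adjusted p = 0.377). In these, Con-PLX was the lowest control pool and Stress-PLX the highest stress pool. *Cacng2* had the smallest p on the lower side in CA1-like nuclei, with 94.1, 137, 84.8 and 89.7 CPM in the control pools and 126, 117, 105 and 111 CPM in the stress pools (-0.64 ± 0.27, adjusted p = 0.481), and in CA2/3-like nuclei, given above (-0.58 ± 0.24, adjusted p = 0.47). In both classes, *Cacng2* was lower after stress in the PLX5622 pair and higher in the other 3. *Cacna2d2*, the smallest p on the higher side, had 3.93, 0, 3.96 and 4.41 CPM in the control pools and 4.26, 8.11, 5.14 and 4.56 CPM in the stress pools in DG-like nuclei, and its value of 0 in Con-PLX allows no fold change for the diet term. In INH-like nuclei its term was 0.55 ± 0.28 (adjusted p = 0.581).

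For the genotype term, *Cacna1g*, a T-type pore, had the smallest p on the lower side in 3 classes. It had 27.9, 36.6, 28.4 and 29.8 CPM in the control pools and 46.9, 46.0, 31.8 and 24.3 CPM in the stress pools in DG-like nuclei (-0.70 ± 0.33, adjusted p = 0.987). CA2/3-like nuclei had 38.4, 35.8, 18.3 and 26.8 CPM in the control pools and 46.5, 41.5, 24.2 and 21.6 CPM in the stress pools (-0.61 ± 0.37, adjusted p = 1), and INH-like nuclei had 109, 102, 81.5 and 96.4 CPM in the control pools and 139, 104, 95.9 and 71.2 CPM in the stress pools (-0.64 ± 0.27, adjusted p = 0.999). In each of these classes, *Cacna1g* was lower after stress in the nIL-1R1-/- pair and higher in the other 3 pairs, and the terms did not pass the test. In CA1-like nuclei the smallest p on the lower side was that of *Cacnb3*, with 29.2, 14.9, 20.1 and 23.9 CPM in the control pools and 33.4, 35.3, 23.4 and 20.1 CPM in the stress pools (-0.69 ± 0.40, adjusted p = 0.993), and it too was lower after stress in the nIL-1R1-/- pair alone. On the higher side it was *Cacna2d1* in DG-like nuclei (given above), *Cacna2d2* in CA1-like nuclei, with 8.25, 9.71, 5.35 and 3.15 CPM in the control pools and 7.74, 17.3, 9.61 and 9.86 CPM in the stress pools (1.14 ± 0.60, adjusted p = 0.993), *Scn2b* in CA2/3-like nuclei, with 14.2, 15.7, 11.4 and 9.29 CPM in the control pools and 13.2, 7.64, 14.3 and 14.1 CPM in the stress pools (0.67 ± 0.49, adjusted p = 1), and *Scn3b* in INH-like nuclei, with 43.5, 83.3, 31.3 and 38.0 CPM in the control pools and 43.0, 43.8, 31.2 and 40.1 CPM in the stress pools (0.35 ± 0.34, adjusted p = 0.999).

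Other genes of the same machinery were counted as lists. Of 20 channel partners (ankyrin-G, the fibroblast growth factors that bind sodium channels, calmodulins, the sodium leak channel complex and others), 18 to 19 were tested per class and 0 were called for stress. Of 14 genes of calcium release and extrusion (ryanodine and IP3 receptors, calcium pumps and sodium-calcium exchangers), 13 were tested and 0 called. At an unadjusted p under 0.05, there were 3 of 18, 5 of 19, 8 of 18 and 5 of 19 partners in the 4 classes. Of the 13 calcium release and extrusion genes there were 4, 3, 5 and 2, where 11.5, 15.4, 16.8 and 8.40% of all genes did so. The shares of both lists lay above those of all genes in every class, which rests on few genes and was not tested. DESeq2 called 3 over both lists and the 4 classes (*Ryr1*, a ryanodine receptor, in DG-like, *Sptbn4*, a spectrin of the axon initial segment, in CA2/3-like and *Fgf13* in INH-like nuclei). The median log2 fold changes with stress of the partners were 0.02, 0.05, -0.02 and 0.03 in the 4 classes, and those of the calcium release and extrusion genes 0.02, 0.06, 0.03 and 0.01. No gene of these lists was called for the genotype or for an interaction. For the diet, *Fgf13*, which binds sodium channels, was called in CA1-like nuclei, with 45.7, 117, 64.0 and 62.7 CPM in the control pools and 62.9, 97.9, 52.7 and 56.9 CPM in the stress pools (log2 fold change 1.09 ± 0.20, adjusted p = 0.00319). Of all genes tested for the diet in CA1-like nuclei, 1.85% were called. *Fgf13* was also among the leading genes of the *Hapln1* and *Egfr* cluster of INH-like nuclei, and the summed INH markers were higher in the same CA1-like pools, as given above. Whether these values are linked was not tested.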

How the data were processed

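Single-nucleus RNA was barcoded, aligned to mm39 and counted by the authors with the Parse Biosciences pipeline (version and gene annotation release not given in the sources used here), and the deposited values are raw counts of UMIs per nucleus and gene. The authors filtered nuclei later in Seurat 4.1.1. Annotations of single nuclei by the authors were not used here. Of 57350 nuclei deposited, 516 with over 20% mitochondrial UMIs were removed, and 0 barcodes were shared between pools. The condition of each nucleus was taken from the deposited tables of nuclei.

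Log-normalized values of 2000 variable genes, without the 30 channel genes, gave 30 principal components, on which nuclei were clustered (20 neighbors, Leiden resolution 1.0, leidenalg 0.10.2, igraph 0.11.9, scikit-learn 1.9.0, Python 3.11.15, numpy 2.4.6, pandas 2.3.3, scipy 1.17.1). Clusters were named where at least 3 markers of a class reached 0.2 of their level in the highest cluster and 1 was among the top 10 genes. The mean of these marker fractions also had to be at least 1.25 times that of the second class. No other class could have more markers among the top 10 genes. Nuclei of clusters left unnamed made up 23.6 to 39.5% of a pool. No doublet caller was run; leaving out the top 5% of nuclei by UMIs was an alternative. UMIs were summed per class and pool, and CPM is relative to that sum. Intervals of ratios cover counting error only.

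Sums were fitted in R 4.3.3 with edgeR 4.0.16 (TMM, filterByExpr, quasi-likelihood F test) with terms for the diet or genotype (the pair) and for stress, and p-values were adjusted over all genes of the class. The authors' test over nuclei was not used, since nuclei are not replicates. Deviations from the means of control and stress pools correlated between paired pools at 0.0903 (INH-like, PLX5622) to 0.323 (CA1-like, PLX5622) over genes. In 8 of 16 class and pair combinations, a stress pool other than the paired one correlated better, so the pairing comes from the shared diet or genotype and not from these correlations. Interactions added 1 term. Alternatives were DESeq2 1.42.0, other size factors, no filter, thinning to 500 UMIs, other clusters, channel genes left out of the totals, and pairs or pools left out. Thinning left out nuclei with fewer than 500 UMIs, so it changed both the depth and the set of nuclei. The fit was tested on simulated data. Figures were drawn with matplotlib 3.10.9.

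The channel genes, the other gene lists and the tests were chosen with earlier results of these data known. All 30 genes are accounted for. Values in every pool are given for genes called, for the 5 highest by mean CPM in each class, and for the smallest p in each direction, class and comparison. Other genes named are examples by role. Gene positions and lengths are those of GENCODE vM39 on GRCm39. Levels of nuclear RNA include unspliced transcripts, and overlapping genes share reads. A further list of related genes is not reported here.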

Additional observations from a re-analysis of the deposited data

Results flagged for a closer look

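In 10 of 108 groups of 4 control or 4 stress pools, taken over the 54 pairs of gene and class given pool by pool, 1 pool stood apart from the other 3 by Dixon's test at the 95% level. Chance flags about 1 in 20 groups of genes not chosen for their values. Many of these genes were chosen for the smallest p of the diet or of stress by diet, so the number of groups, and how often a PLX5622 pool is the one apart, cannot be read against that rate.

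Among control pools, Con-PLX stood apart 6 times. In CA1-like nuclei it had 47.9 CPM of *Cacnb1* against 71.7 to 74.5 CPM and 1961 CPM of *Cacnb2* against 2431 to 2449 CPM. In CA2/3-like nuclei it had 41.1 CPM of *Cacnb1* against 51.6 to 53.4 CPM, 198 CPM of *Scn1a* against 237 to 238 CPM, and 6.12 CPM of *Cacng4* against 2.48 to 2.61 CPM. In DG-like nuclei it had 0 CPM of *Cacna2d2* against 3.93 to 4.41 CPM.

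Among stress pools, Stress-PLX stood apart 2 times, with 103 CPM of *Cacng3* in DG-like nuclei against 141 to 148 CPM and 7.64 CPM of *Scn2b* in CA2/3-like nuclei against 13.2 to 14.3 CPM. The vehicle pools stood apart in the rest. Stress-Veh had 124 CPM of *Cacnb1* in CA1-like nuclei against 72.4 to 74.9 CPM, and Con-Veh had 2835 CPM of *Cacna1c* in CA2/3-like nuclei against 2494 to 2530.2 CPM.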

How the results depend on the processing

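Over the 4 classes, 1 test of a channel gene passed for stress, that of *Cacna1h* in CA1-like nuclei, where its log2 fold change was 0.27 to 0.71 over the alternatives and it was called in 7 of 14. The number called was 4 with DESeq2, 5 without a filter on low counts and 3 in the deeper clusters alone (an alternative chosen after seeing the data). It was 0 with nuclei thinned to 500 UMIs, 0 with Leiden resolution 2.0, 0 without the top 5% of nuclei by UMIs and 0 without the replicate block for the pair. With 1 pair left out in turn it ranged from 0 (without the vehicle or the IL-1R1+/+ pair) to 2 (without the PLX5622 or the nIL-1R1-/- pair). With clusters lacking leading markers of their own added, also chosen after seeing the data, 1 was called, *Cacnb2* in CA1-like nuclei. For the diet, 0 became 1 without a filter (*Cacng4* in DG-like nuclei), and with pools left out in turn it was 0 to 1, the 1 without Stress-PLX (*Cacng8* in DG-like nuclei). For the difference with stress by diet, leaving out pairs in turn gave 0 to 5, the 5 without the vehicle pair. For the genotype and its interaction with stress, the count was 0 throughout. The cause of these shifts was not tested.

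Log2 fold changes that changed sign were all of genes that did not pass the test. With nuclei thinned, they were *Cacna2d2* in INH-like (0.0005) and *Cacnb1* in CA2/3-like nuclei (0.38) for the diet, and *Cacng2* in CA2/3-like (0.0518) and *Cacng4* in INH-like nuclei (0.44) for the genotype. *Cacng2* also turned without Con-nIL-1R1-/- (0.0066; the other single pools left out gave values down to -0.2961), *Cacnb4* in CA1-like nuclei for the diet with the clusters added (-0.0578), and *Cacna2d2* in DG-like nuclei for stress by diet in the deeper clusters (-0.29). Of the other named values, 518 kept their direction and side of the threshold, 14 came to pass it and 7 no longer passed.

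The number of channel genes with 1 class apart in every pool was 9 for the highest class and 8 in the 3 alternatives run. For the lowest class it was 7, and 4 with nuclei thinned to 500 UMIs, 8 with Leiden resolution 2.0 and 7 without the top 5% of nuclei. Interactions were not run on 4 pools alone, which leave no residual degrees of freedom, and per-kb scales give ranks and no alternative count. Depth limits the PLX5622 pools most.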
